A study of Mus musculus with 6 samples.

Results

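The genes described here encode the scaffold proteins of the presynaptic active zone, the patch of membrane at which a nerve terminal releases transmitter. They are Rims1, Rims2, Unc13a, Unc13b, Unc13c, Bsn, Pclo, Erc1, Erc2 and Ppfia2. Members were chosen by name: every isoform row of the deposited count matrix whose transcript name, without its final number, was one of these 10 symbols was taken. This gave 84 of 133944 isoform rows and 10 of 53354 gene symbols, and the reads assigned to them made up 0.195% to 0.209% of all reads in a mouse.

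Total RNA of whole hippocampi was sequenced, with 1 library per mouse. There were 3 N-cre mice, and 3 N-cre;Fox1 mice were set against them, all of the C57BL/6 strain and 3 months of age. Mice of both groups carried a Nestin promoter driven Cre recombinase, so that N-cre is the control for Cre and not an animal without it. N-cre;Fox1 mice carried in addition 1 copy of an Rbfox1 cDNA placed in the Rosa26 locus behind a CAG promoter and a stop cassette flanked by loxP sites, which Cre removes. By the reporter staining of the study, this Cre was active in hippocampal granule and pyramidal cells. The line came from 129/sv embryonic stem cells and was backcrossed to C57BL/6J. The comparison asks what a raised dose of Rbfox1, an RNA binding protein that regulates splicing and the stability of mRNA in neurons, does to these genes.

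Synaptic vesicles dock and are made ready for fusion at the active zone. RIM proteins (Rims1 and Rims2) bind the Rab3 proteins of the vesicle and hold calcium channels near it, and Munc13 proteins (Unc13a, Unc13b and Unc13c) prime the vesicle by helping the SNARE complex to form. Bassoon (Bsn) and Piccolo (Pclo) are very large proteins that organize the region around the release sites, ELKS (Erc1) and CAST (Erc2) are coiled-coil scaffolds that bind RIM and Bassoon, and liprin-α2 (Ppfia2) helps to recruit the others. Several of these genes make more than 1 protein by alternative splicing, and Rbfox proteins bind the sequence TGCATG, read with U for T in RNA, in introns and 3′ untranslated regions of their targets.

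The libraries held 40463587 to 62141336 expected counts per mouse. The normalized count of Rbfox1, given as CPM (counts scaled to the library size, which was adjusted by TMM), was 288, 273 and 277 in N-cre replicates 1, 2 and 3 and 300.5, 256 and 288 in N-cre;Fox1 replicates 1, 2 and 3. The genotypes overlapped, so the labels could not be checked against this sum. Markers of CA1, CA3 and dentate gyrus cells were present in every mouse, and the summed CPM of 3 markers of cerebellar granule cells was only 0.483 to 0.846. The sum of 4 choroid plexus markers was 2203 CPM in N-cre replicate 3 and 4961 in N-cre;Fox1 replicate 2, against 25.5 to 34.4 in the other mice, so these 2 hippocampi stand apart, and the results that moved most are also given without both. The sum of 5 astrocyte markers ranged from 3035 to 3142 CPM in control and from 3170 to 3390 CPM in N-cre;Fox1 mice, without overlap. Of these 5 markers, 3 were higher in N-cre;Fox1 mice by log2 fold change, and the median was 0.099. In edgeR's test 0 of the 5 passed an adjusted p of 0.05. An unadjusted p under 0.05 was found for 3 of the 5, against 6.19% of all genes. The marker sums of the other cell types overlapped between the genotypes, while 12.1% of all single genes had no overlap in CPM. The part of the astrocyte sum in the results was not tested. Xist was at 415 to 443 CPM in replicate 1 of each genotype and at 0.326 to 0.416 CPM in the other mice. In bulk tissue, fewer cells of a type and less RNA per cell cannot be told apart.

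Some alternative exons of Unc13a, Unc13b, Rims1 and Erc2 are shown first, since several of the isoforms of these genes described below differ by them. A pair of exons of 57 nt, one in Unc13a at chr8:71633439-71633495 (minus strand) and one in Unc13b at chr4:43260993-43261049 (plus strand, both mm10), had the same length and shared 40 of 57 bases, or 70.2%. They are printed 5′ to 3′ with the bases that differ between them in capitals.
Unc13a: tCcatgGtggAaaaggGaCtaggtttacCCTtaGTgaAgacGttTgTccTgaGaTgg
Unc13b: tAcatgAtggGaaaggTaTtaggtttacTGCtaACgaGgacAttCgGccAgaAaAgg
The best ungapped window of the leading Unc13c transcript matched 27 of the 57 bases of the first and 29 of the 57 of the second.

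Rims1 and Erc2 hold exons of no more than 12 nt and a multiple of 3 nt long. Those of Rims1 lie close together on the minus strand, at chr1:22594093-22594104, chr1:22593033-22593044 and chr1:22592304-22592309. That of Erc2 lies at chr14:28046475-28046486 (plus strand).
Rims1, 12 nt, held by Rims1-202: gaggacaaagtg
Rims1, 12 nt, held by Rims1-201, Rims1-203 and Rims1-206: aaaggtaagtat
Rims1, 6 nt, held by Rims1-204: aaggtt
Erc2, 12 nt, held by Erc2-205 and Erc2-208: cttgactctcag
These sequences are given on the strand of the gene, from the GENCODE transcripts of mm10.

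The levels of the 10 genes in the hippocampus covered a wide range. Per length, in TPM (expected counts divided by the annotated isoform lengths and scaled to the same total in every mouse), Unc13a was highest at a mean of 180 over the 6 mice, followed by Bsn at 135, Rims1 at 114, Erc2 at 101 and Ppfia2 at 95.9. Pclo followed at a mean TPM of 56.7, Rims2 at 43.5, Unc13b at 37.6, Erc1 at 29.6 and Unc13c at 3.79. Each neighbour in this order was lower than the one before it in every mouse, with the exception of Erc2 and Ppfia2, whose ranges were 92.6 to 107 and 91.5 to 102 TPM and which kept their order in 5 of 6 mice. Within each family 1 member prevailed: Unc13a over Unc13b and Unc13c, Rims1 over Rims2 and Erc2 over Erc1.

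**Figure D1:**
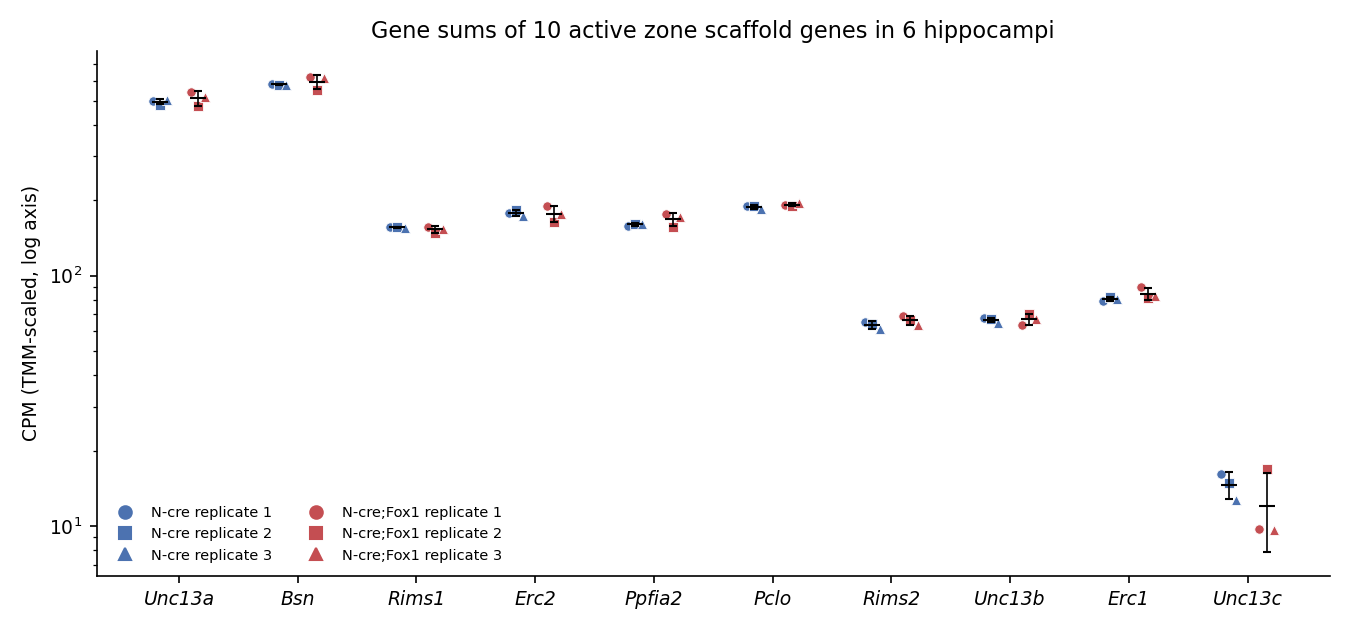
Normalized counts (CPM, TMM-scaled, log axis) of the 10 genes in each of the 6 mice, ordered by their mean TPM. Points are mice, with a marker for each replicate number, and bars give the mean and SD of each genotype (n = 3). The genotypes overlap for each gene, and Unc13c has the widest spread, from 9.61 to 16.9 CPM.

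The summed expression of these genes was not called different between the genotypes. None of the 10 genes passed an adjusted p of 0.05 in edgeR's quasi-likelihood test, and 0 of 10 had an unadjusted p under 0.05. DESeq2 and limma-voom also called 0 of 10. Over all 18924 genes tested, 0.0264% passed the adjusted and 6.19% the unadjusted threshold. The CPM of the genotypes overlapped for all 10 genes, while 12.1% of all genes had no overlap. The log2 fold change of N-cre;Fox1 over N-cre was above 0 for 7 genes and below 0 for 3, with a median of 0.036 over the 10, against -2.4e-05 over all genes. The lowest adjusted p was 0.852. Without both mice with choroid plexus markers, a setting added after the data were seen, the log2 fold changes of Unc13a, Bsn and Ppfia2 were 0.11, 0.093 and 0.12 in place of 0.045, 0.038 and 0.070, with adjusted p of 0.678, 0.67 and 0.631 in edgeR's test. With the 2 mice per genotype that were left, 7 of 10 members and 35.3% of all genes had no overlap in CPM.

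The RIM genes differed little between mice. Rims1 (ENSMUSG00000041670.16, chr1:22286251-22805994) was at 156, 156 and 155 CPM in N-cre and at 157, 148 and 154 CPM in N-cre;Fox1 mice, and only N-cre;Fox1 replicate 2 fell clearly below the others. The log2 fold change of Rims1 was -0.027, with a 95% interval of -0.10 to 0.049. Rims2 (ENSMUSG00000037386.16, chr15:39198261-39684372) was at 65.5, 63.9 and 61.1 CPM in N-cre and at 69.1, 66.7 and 63.6 CPM in N-cre;Fox1 mice, so that 2 of 3 N-cre;Fox1 mice lay above all N-cre mice. Its log2 fold change was 0.065, with an interval of -0.027 to 0.16 and an adjusted p of 0.873.

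Among the Munc13 genes, Unc13a (ENSMUSG00000034799.16, chr8:71624417-71671757), the main priming factor of glutamatergic terminals, was at 501, 483 and 504 CPM in N-cre and at 541, 475 and 519 CPM in N-cre;Fox1 mice. Both the highest and the lowest value came from N-cre;Fox1 mice, and a log2 fold change of 0.045 was obtained, with an interval of -0.070 to 0.16. Unc13b (ENSMUSG00000028456.18, chr4:43058953-43264871) was at 67.6, 67.2 and 64.9 CPM in N-cre and at 63.7, 70.2 and 67.1 CPM in N-cre;Fox1 mice, which spanned all N-cre values. Its log2 fold change was 0.0094, with an interval of -0.081 to 0.10, or a ratio of 0.945 to 1.07.

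Unc13c (ENSMUSG00000062151.13, chr9:73479422-73968966), which is best known from the cerebellum, was the lowest and most variable member. It was at 16.2, 14.9 and 12.7 CPM in N-cre and at 9.70, 16.9 and 9.61 CPM in N-cre;Fox1 mice. N-cre;Fox1 replicates 1 and 3 were below all N-cre mice, and N-cre;Fox1 replicate 2 was above them. With all 6 mice the log2 fold change was -0.28, with an interval of -0.96 to 0.41 and an adjusted p of 0.940. The mouse that stood against the other N-cre;Fox1 mice was the one with the most choroid plexus markers, and the lowest N-cre mouse was the other with such markers. Without both, the means were 15.5 CPM in 2 N-cre and 9.66 CPM in 2 N-cre;Fox1 mice. Unc13c then had a log2 fold change of -0.69 (SE 0.0891), and the adjusted p in edgeR's test over 19126 genes was 0.0417. In this comparison 1 of the 10 members and 0.0366% of all genes passed. This alternative was chosen after the data were seen and rests on 2 mice per genotype. With a single mouse left out the lowest adjusted p of Unc13c was 0.157. The part of the choroid plexus tissue in this spread was not tested.

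**Figure D2:**
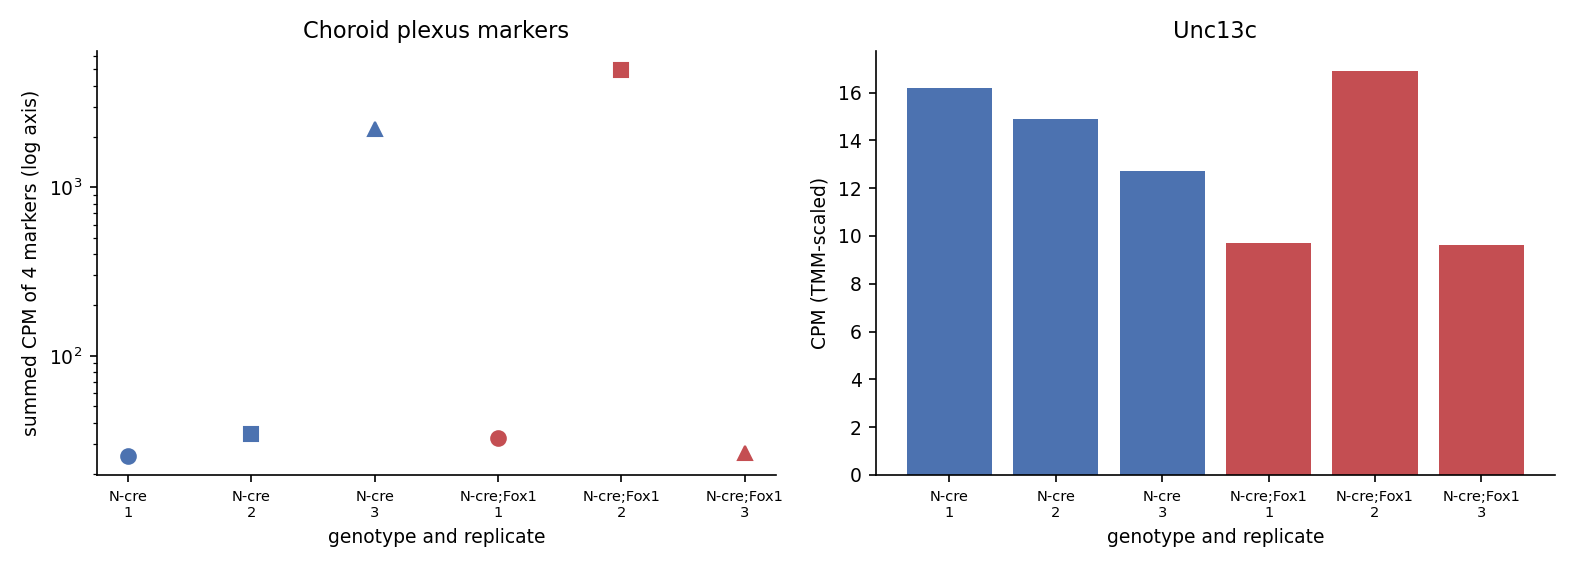
Left, summed CPM of 4 choroid plexus markers in each mouse (log axis). Right, CPM of Unc13c in the same mice (linear axis from 0). N-cre replicate 3 and N-cre;Fox1 replicate 2 hold the markers at 2203 and 4961 CPM, and Unc13c is at 12.7 and 16.9 CPM in them, against 14.9 to 16.2 in the other N-cre and 9.61 to 9.70 in the other N-cre;Fox1 mice.

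Of the giant scaffolds, Bsn (ENSMUSG00000032589.14, chr9:108096022-108190384) was at 584, 579 and 580.0 CPM in N-cre and at 623, 551 and 616 CPM in N-cre;Fox1 mice. Its N-cre values were close together and lay between those of N-cre;Fox1 mice. For Bsn the log2 fold change was 0.038, with an interval of -0.073 to 0.15. Pclo (ENSMUSG00000061601.15, chr5:14514918-14863459) was at 189, 189.8 and 184 CPM in N-cre and at 191, 189.6 and 196 CPM in N-cre;Fox1 mice, with a log2 fold change of 0.035 and an interval of -0.038 to 0.11.

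The coiled-coil scaffolds and liprin-α2 gave the same picture. Erc1 (ENSMUSG00000030172.15, chr6:119570796-119848167) was at 79.1, 82.0 and 80.6 CPM in N-cre and at 89.8, 81.4 and 82.8 CPM in N-cre;Fox1 mice. On this scale only N-cre;Fox1 replicate 1 stood off from the rest. Per length the genotypes of Erc1 did not overlap, at 28.1 ± 0.762 TPM (SD, n = 3) in N-cre and 31.0 ± 1.71 TPM (SD, n = 3) in N-cre;Fox1 mice, which was not the case for the other members. The share of all genes without overlap in TPM is not given, and in CPM it was 12.1%. The lack of overlap in TPM thus cannot be read as a result about Erc1. The log2 fold change of Erc1, 0.071, with an interval of -0.021 to 0.16, had the lowest adjusted p of the members. With protein coding isoforms only, the log2 fold change of Erc1 was 0.013. Erc1 lies 6.49 Mb from Gt(ROSA)26Sor, the site of the transgene, and effects of the transgene and of linked sequence from the 129 strain cannot be told apart there. Erc2 (ENSMUSG00000040640.11, chr14:27622428-28478537) was at 179, 183 and 173 CPM in N-cre and at 189.5, 164 and 176 CPM in N-cre;Fox1 mice, with a log2 fold change of -0.012 and an interval of -0.12 to 0.099. Ppfia2 (ENSMUSG00000053825.15, chr10:106470339-106935952) was at 158, 161 and 161 CPM in N-cre and at 176, 157 and 172 CPM in N-cre;Fox1 mice. Again 2 of 3 N-cre;Fox1 mice lay above all N-cre mice and replicate 2 lay below them. The log2 fold change of Ppfia2 was 0.070, with an interval of -0.027 to 0.17 and an adjusted p of 0.863.

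**Figure D3:**
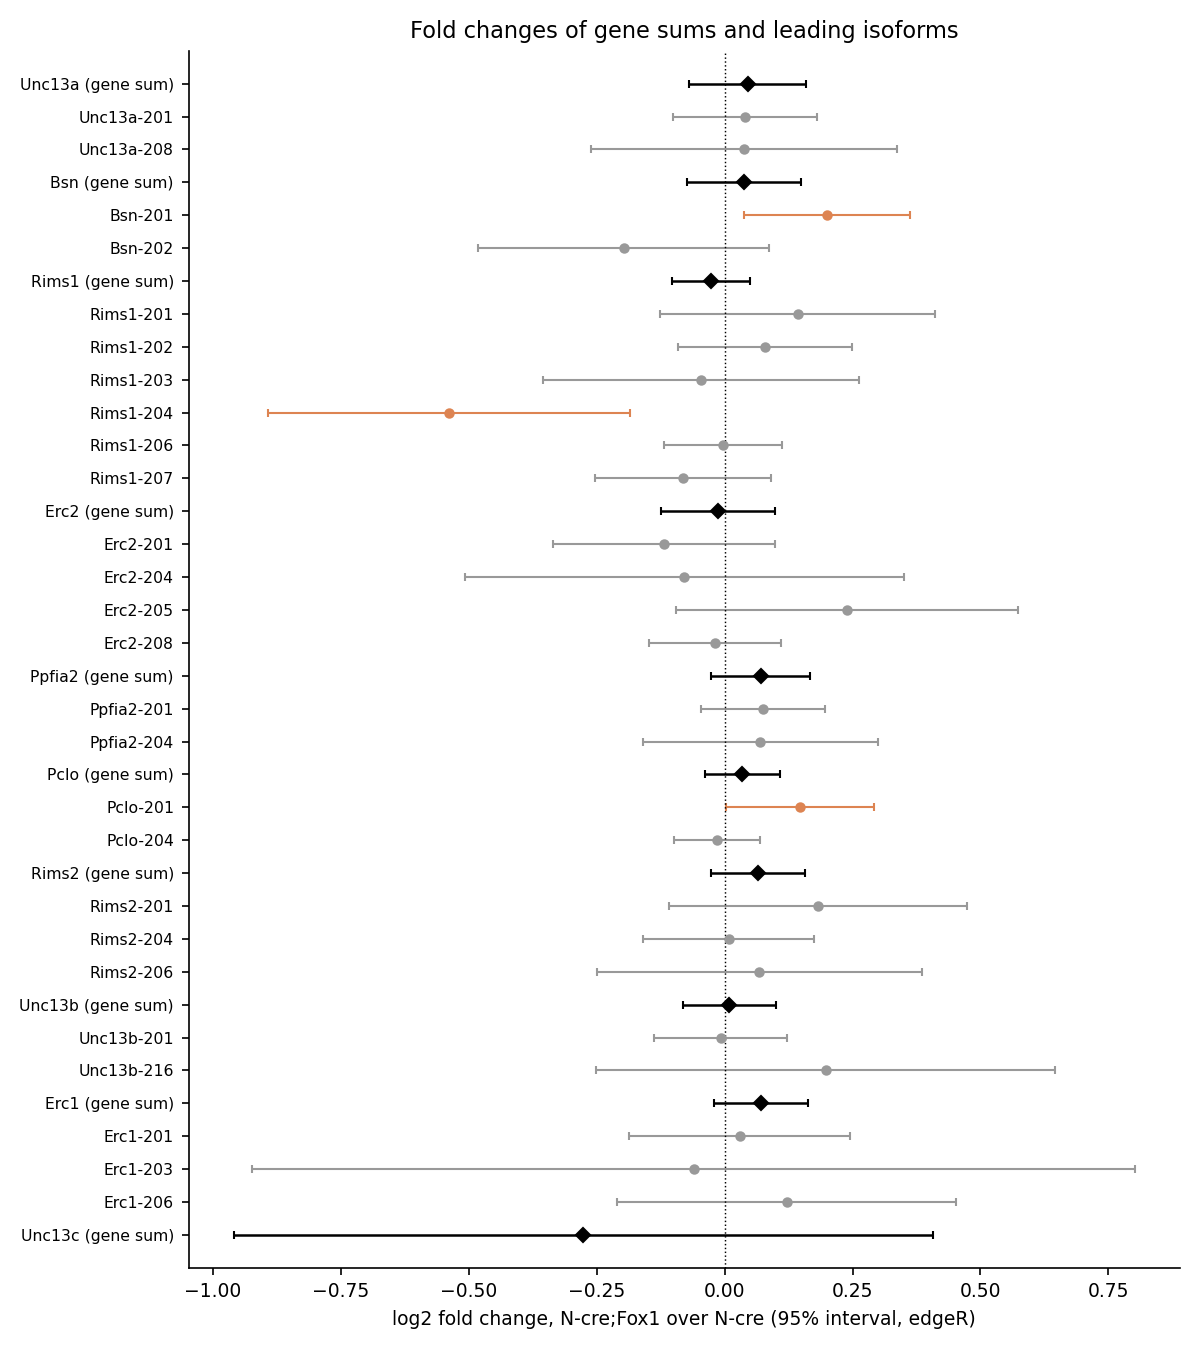
Log2 fold changes of N-cre;Fox1 over N-cre with 95% intervals from edgeR's fits, for gene sums (black diamonds) and for isoforms with a mean share of at least 10% of their gene in either genotype (circles). Isoforms in orange had an unadjusted p under 0.05, namely Rims1-204 at -0.54, Bsn-201 at 0.20 and Pclo-201 at 0.15.

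Isoforms were compared in the same way, and as shares of the expected count of their gene. Of the 84 isoform rows, 51 had enough counts to be tested, and those left out together made up at most 2.92% of their gene in any mouse. An isoform's count is an estimate, since a read can fit several isoforms of a gene. None of the 51 passed an adjusted p of 0.05 in edgeR's quasi-likelihood test, and neither did any other isoform (0% of 50556). At an unadjusted p under 0.05, 3 of the 51 passed, against 4.78% of all isoforms. DESeq2 and limma-voom called 0 of the 51 as well. Isoform use, the change of an isoform relative to its gene, was tested for 50 member isoforms with diffSpliceDGE of edgeR. It gave 0 adjusted calls, against 0.217% of all isoforms, and 1 isoform with an unadjusted p under 0.05, against 2.03%. A limma test on the log2 ratio of an isoform to the rest of its gene, added after the data were seen, gave 0 adjusted and 3 unadjusted calls, against 0.00236% and 5.3% of all isoforms. Of the 28 member isoforms with a mean share of at least 5% in the 9 genes other than Unc13c, 3 had shares that did not overlap between the genotypes, against 11% of all such isoforms. With 3 mice per genotype the exact permutation test cannot give a two-sided p below 0.1, and after adjustment the lowest was 0.933.

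In Rims1, 6 isoforms had a mean share of at least 10% in either genotype, more than in the other members. Rims1-207, a short form of 2294 nt, held 22.6% to 25.9% of the expected count, and Rims1-201, Rims1-202, Rims1-203 and Rims1-206 held between 11.04% and 17.9% each. Rims1-204 (6362 nt, with 4188 coding nt) was the member isoform with the lowest p. Its share of Rims1 was 10.8%, 13.0% and 9.96% in N-cre and 7.59%, 7.004% and 9.08% in N-cre;Fox1 mice, so that every N-cre;Fox1 mouse was below every N-cre mouse. Its log2 fold change was -0.54, with an interval of -0.89 to -0.18, an unadjusted p of 0.00949 and an adjusted p of 0.945 in edgeR's isoform test. It was also the isoform with an unadjusted p under 0.05 in diffSpliceDGE (0.0236) and had the lowest p in the ratio test (0.0121), where the adjusted p was 0.901. Rims1-204 had no base and no junction that no other annotated Rims1 isoform holds. Among the isoforms with reads it was the one with the exon of 6 nt printed above. The log2 fold changes of the other Rims1 isoforms with a share of at least 10% were -0.081 to 0.14, with adjusted p from 0.990 up to 1.00.

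In Rims2 the short form Rims2-204 (3685 nt, of which 855 nt are coding) led with 51.8% to 59.98% of the expected count, and Rims2-201 and Rims2-206 held 16.1% to 20.6%. The lowest share of Rims2-204 was in N-cre;Fox1 replicate 2, and the genotypes overlapped for all 3 isoforms. Their log2 fold changes were 0.0081 for Rims2-204, 0.18 for Rims2-201 and 0.068 for Rims2-206, with no unadjusted p under 0.05.

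Unc13a-201, which lacks the exon of 57 nt printed above, made up 85.1%, 83.0% and 81.4% of Unc13a in N-cre and 82.8%, 82.0% and 84.0% in N-cre;Fox1 mice. Unc13a-208, which holds it, made up 10.9%, 13.1% and 14.5% in N-cre and 13.3%, 13.6% and 11.5% in N-cre;Fox1 mice. The genotypes overlapped for both isoforms, and their log2 fold changes were 0.039 and 0.038, with intervals of -0.10 to 0.18 and of -0.26 to 0.34. In Unc13b the leading form was Unc13b-201 with 70.9% to 74.3%. Unc13b-216, which starts further downstream and holds a coding exon of 2514 nt (chr4:43215452-43217965), an exon of 23 nt and the exon of 57 nt printed above, made up 12.8%, 19.5% and 12.9% in N-cre and 18.2%, 17.2% and 16.2% in N-cre;Fox1 mice. N-cre replicate 2 had the highest share of this isoform of all mice, and its log2 fold change of 0.20 had an interval from -0.25 to 0.64. This was 0.081 to 0.44 with each mouse left out and 0.044 without both mice with choroid plexus markers. Unc13c had reads in 1 isoform only, Unc13c-202 (8796 nt).

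**Figure D4:**
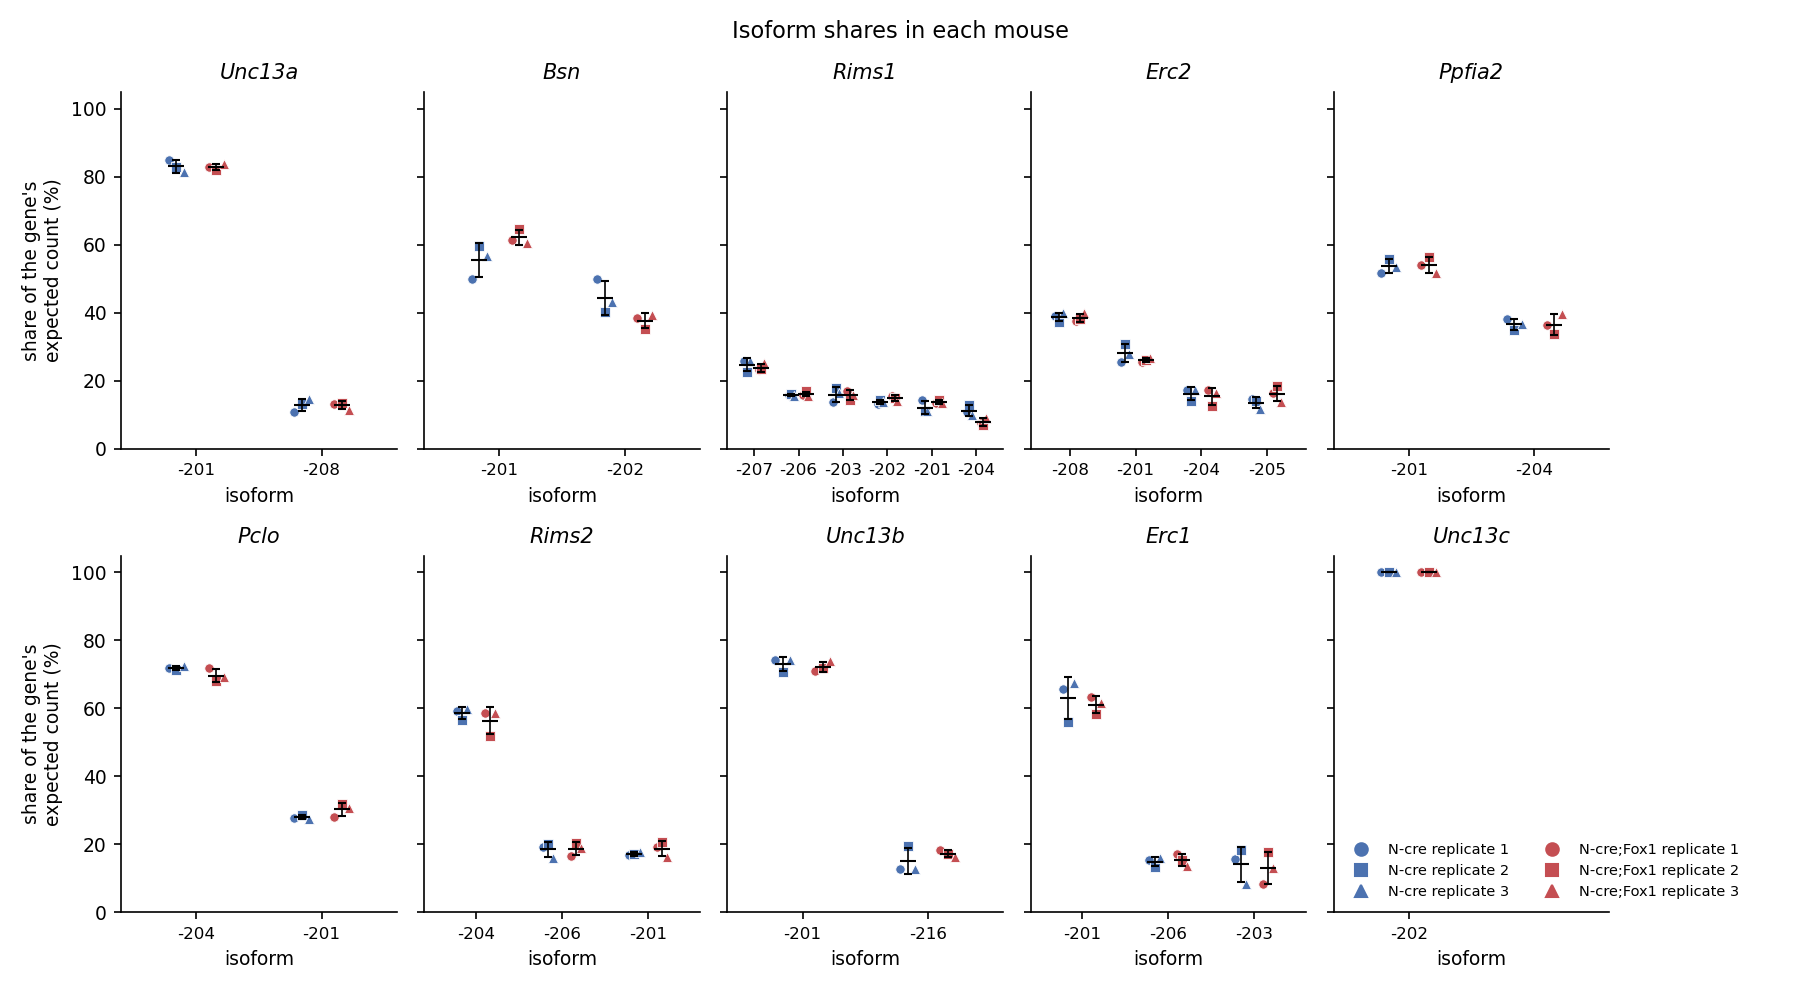
Share of each gene's expected count (percent) taken by its isoforms with a mean share of at least 10% in either genotype, in each of the 6 mice, with the mean and SD per genotype (n = 3). Bsn-201 was at 50.01% to 59.8% in N-cre and at 60.6% to 64.7% in N-cre;Fox1 mice, and Rims1-204 at 9.96% to 13.0% and at 7.004% to 9.08%. Apart from these and from Bsn-202, which is the rest of Bsn, the isoforms shown overlap between the genotypes.

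Bsn divided its reads between a full-length form, Bsn-201 (15938 nt, of which 11826 nt are coding), and a shorter one, Bsn-202 (7496 nt). Bsn-201 made up 50.01%, 59.8% and 56.8% in N-cre and 61.6%, 64.7% and 60.6% in N-cre;Fox1 mice, and Bsn-202 the rest. All 3 N-cre;Fox1 mice were above all N-cre mice, with N-cre replicate 2 and N-cre;Fox1 replicate 3 close to each other, and N-cre replicate 1 was furthest from the others. The mean share of Bsn-201 was 55.5% ± 5.02 (SD, n = 3) in control mice, and in N-cre;Fox1 mice it was 62.3% ± 2.13 (SD, n = 3). The log2 fold change of Bsn-201 was 0.20, with an interval of 0.037 to 0.36 and an unadjusted p of 0.0235, and that of Bsn-202 was -0.20, with an interval of -0.48 to 0.087. In the ratio test the log2 ratio of the isoforms differed by 0.40, with an unadjusted p of 0.0380 and an adjusted p of 0.902. Bsn-201 has 8442 nt that Bsn-202 lacks, while Bsn-202 has no base and 1 junction of its own. Per length the shorter Bsn-202 prevailed, at a mean share over all mice of 59.6%, against 40.4% for Bsn-201.

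In Pclo the shorter Pclo-204 (6738 nt) prevailed over Pclo-201 (20084 nt, with 15204 coding nt). Pclo-204 has only 50 nt and 2 junctions that no other annotated Pclo isoform holds, so the division of reads between them is an estimate. Pclo-201 made up 27.9%, 28.7% and 27.4% of Pclo in N-cre and 28.2%, 32.0% and 30.8% in N-cre;Fox1 mice, and N-cre;Fox1 replicate 1 fell among the N-cre mice. Its log2 fold change was 0.15, with an interval of 0.0028 to 0.29 and an unadjusted p of 0.0469, and the adjusted p was 0.990. Without both mice with choroid plexus markers it was 0.088. Per length, Pclo-204 was at a mean share of 88.4% in N-cre and 87.2% in N-cre;Fox1 mice.

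Erc1-201 held 55.9% to 67.4% of Erc1, and the genotypes overlapped. Erc1-203 held 15.8%, 18.2% and 8.4% in N-cre and 8.4%, 17.8% and 13.1% in N-cre;Fox1 mice, and its interval was the widest of the isoforms shown, from -0.92 to 0.80. Erc1-206, annotated as a target of nonsense-mediated decay, held 13.3% to 17.3%. In Erc2, Erc2-208 led with 37.4% to 39.9%, followed by Erc2-201 with 25.5% to 30.8%, a form with a retained intron, Erc2-204, with 12.6% to 17.4%, and Erc2-205 with 11.7% to 18.5%. None of these had an unadjusted p under 0.05, and the log2 fold change of Erc2-205, 0.24, was 0.079 without both mice with choroid plexus markers. Ppfia2-201 held 51.7% to 56.4% of Ppfia2 and a processed transcript without a coding sequence, Ppfia2-204, 33.7% to 39.7%. Per length their order was reversed, at mean shares over all mice of 42.5% for Ppfia2-201 and 52.6% for Ppfia2-204. By expected count, isoforms not annotated as protein coding made up 34.0% to 39.9% of Ppfia2, 18.5% to 28.2% of Erc1, 14.1% to 19.0% of Erc2 and 7.60% to 8.96% of Unc13b. The genotypes overlapped in each of these genes.

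The use of single coding exons was read from the same estimates. Of 49 internal coding exons that some annotated isoforms of a gene hold and others skip, 33 in 6 genes were held by isoforms with 5% to 95% of the gene's counts. They were 6 to 2514 nt long, 22 were multiples of 3 nt and 4 were no longer than 12 nt. Inclusion is the summed abundance per length of the isoforms that hold an exon, as a percentage of those that hold or skip it, so exons of the same isoforms are not independent. Some of the 33 are Unc13b exons at a mean inclusion of 99.7% to 100%. They were counted because isoforms that do not span them take part of the gene's counts, and they were hardly skipped. The genotype means differed by -3.31 to 4.48 points. For 2 of the 33 exons the genotypes did not overlap on this scale. The share over the exons of all genes is not given, and for isoform shares of at least 5% it was 11%. Exons without overlap are described below and cannot be read as a result about the members.

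The exon of 6 nt in Rims1 was included at 10.2%, 11.4% and 9.1% in N-cre and at 6.6%, 6.1% and 8.1% in N-cre;Fox1 mice, which restates the values of Rims1-204. The neighbouring exons of 12 nt were included at 41.1% to 43.2% and at 32.8% to 35.6% over all 6 mice. The genotypes overlapped for both on this scale. By counts, without division by length, the exon of 12 nt held by Rims1-201, Rims1-203 and Rims1-206 showed no overlap, at a mean inclusion of 61.6%. Further downstream in Rims1, exons of 63 and 90 nt were included together at 76.8% to 81.6%, one of 72 nt at 50.6% to 56.4% and one of 183 nt at 25.9% to 30.3%, with overlap between the genotypes in each. By counts the exon of 183 nt, which Rims1-204 and Rims1-208 hold, showed no overlap.

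The exon of 57 nt was included at 18.8%, 22.3% and 24.4% in N-cre and at 22.6%, 23.1% and 19.9% in N-cre;Fox1 mice in Unc13a, with the same mean of 21.9% in both. Its counterpart in Unc13b was included at 14.5%, 18.4% and 13.5% in N-cre and at 16.9%, 15.4% and 14.6% in N-cre;Fox1 mice, with means of 15.5% and 15.7%. Both exons were thus the minor choice in every mouse. The exon of 12 nt in Erc2 was the major choice, at 66.2% to 72.7%. An exon of 66 nt in Erc2, in which the coding sequence of Erc2-205 or Erc2-208 ends, was included at 52.5%, 51.9% and 50.8% in N-cre and at 52.6%, 57.4% and 52.9% in N-cre;Fox1 mice. The genotypes did not overlap on this scale but did by counts, and the exact permutation test gave 0.1, the smallest two-sided p that it allows.

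**Figure D5:**
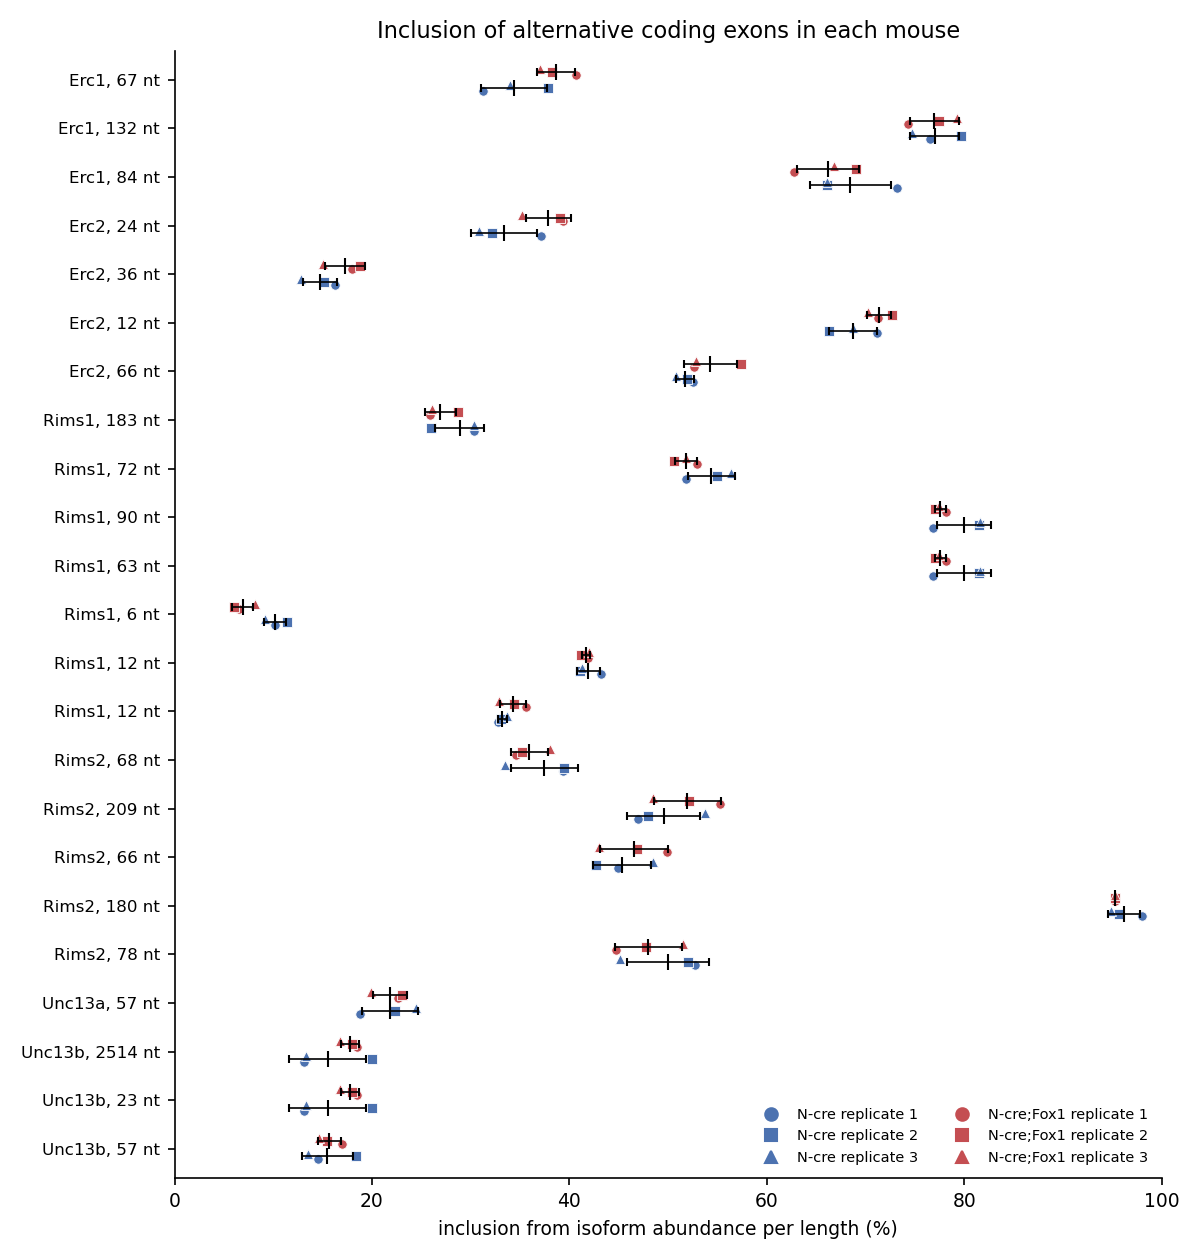
Inclusion (percent, from isoform abundance per length) of alternative coding exons in each mouse, with the mean and SD per genotype (n = 3). Exons are named by gene and length, and exons at nearly full inclusion in Unc13b are left out. For most exons the points of the genotypes lie on each other, and the exons of 6 nt in Rims1 and of 66 nt in Erc2 show no overlap on this scale, with means of 10.2% and 6.9% and of 51.7% and 54.3%.

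The motif bound by Rbfox proteins was looked for in the longest annotated 3′ untranslated region of a tested isoform of each gene. TGCATG occurred at least once in 9 of the 10 genes on the strand of the mRNA, with 4 copies each in Unc13a and Rims2, 1 each in Unc13c and Ppfia2, 2 each in Rims1, Bsn, Pclo, Erc1 and Erc2, and 0 in Unc13b. Over all 14089 genes with such a region 37.6% held it, but these genes have long 3′ untranslated regions. Of genes with a region within 20% of the same length, 80.6% held it for Unc13a (5006 nt), 57.8% for Rims2 (2608 nt), 51.6% for Rims1 (2171 nt), 38.2% for Unc13c (1448 nt) and 35.0% for Unc13b (1286 nt). A match describes the letters and is no evidence of binding. The sites of the 2 genes with the most copies and of Unc13c are printed with 10 nt on each side and the motif in capitals.
Unc13a, chr8:71627999-71628024: gctgacggtcTGCATGtgaccccaat
Unc13a, chr8:71627978-71628003: ccaattcacaTGCATGgttttcatta
Unc13a, chr8:71626831-71626856: tgttcatgagTGCATGgcgttgagat
Unc13a, chr8:71626016-71626041: ataccatttgTGCATGctcccatgta
Rims2, chr15:39681834-39681859: ctggtaacacTGCATGcttgatgttg
Rims2, chr15:39682388-39682413: aaacttttttTGCATGgacacagatt
Rims2, chr15:39682518-39682543: atttcactagTGCATGgttttacaat
Rims2, chr15:39683034-39683059: tattgtacagTGCATGgtaatttttt
Unc13c, chr9:73480793-73480818: gaccctcacaTGCATGtggaaataca
The Unc13a and Unc13c sites are on the minus strand and the Rims2 sites on the plus strand of mm10. The gene sums of Unc13a and Rims2, with 4 copies each, had log2 fold changes of 0.045 and 0.065, and that of Unc13b, with none, was 0.0094. With 2 copies, Erc1 was at 0.071, Bsn at 0.038, Pclo at 0.035, Erc2 at -0.012 and Rims1 at -0.027. With 1 copy, Ppfia2 was at 0.070 and Unc13c at -0.28. The intervals of all 10 genes included 0, so the order of these changes cannot be read against the number of copies. A link between the motif and the changes was not tested. Among the coding exons described, 2 held the shorter GCATG, both in Unc13b. They were the exon of 2514 nt and an exon of 144 nt that was at 100% inclusion in every mouse. Introns were not searched.

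A list of 29 further genes of the active zone gave a like result. It holds other RIM and liprin genes, RIM-binding proteins, Rab3 proteins, calcium channels, receptor phosphatases such as Ptprs, and adaptors. All 29 were tested in edgeR's test. An adjusted p of 0.05 was passed by 0, against 0.0264% of all genes, and an unadjusted p of 0.05 by 1, against 6.19%. The log2 fold changes were above 0 for 9 and below 0 for 20 genes, with a median of -0.020 and a range of -0.28 to 0.18. The 1 gene was Lin7a, whose protein links CASK and Mint adaptors at synapses. It was at 8.999, 8.62 and 9.08 CPM in N-cre and 9.77, 10.04 and 10.4 CPM in N-cre;Fox1 mice. The genotypes did not overlap, as was the case for 12.1% of all genes. The log2 fold change of Lin7a was 0.18, with an interval of 0.0059 to 0.35 and an adjusted p of 0.799.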

How the data were processed

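Paired reads of libraries made with a stranded total RNA kit were trimmed with Cutadapt 1.18, mapped to mm10 with STAR 2.5.2b and quantified with RSEM 1.3.0 on GENCODE M16 by the authors, who deposited the expected counts of 133944 isoforms without normalization. The groups and replicate numbers came from the labels. The members and gene lists used here were chosen with earlier results of these data known.

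Expected counts were rounded, and gene sums were taken over all isoforms of a symbol. In R 4.3.3, genotypes were compared with the quasi-likelihood test of edgeR 4.0.16 (robust, TMM, filterByExpr 10 counts at the least, 15 in total), with Benjamini-Hochberg adjustment over all genes or isoforms and a threshold of 0.05. Isoform use was tested with diffSpliceDGE and with limma 3.58.1 on ratios (prior count 0.5), which was added because diffSpliceDGE made many false calls on simulated data. Shares were compared with exact two-sided permutation tests. Alternatives used DESeq2 1.42.0, limma-voom and limma diffSplice. The fits were tested on simulated data. Lengths, exons and sequences came from GENCODE M21 of mm10, which held all 84 member isoforms by identifier. Shares were tested for isoforms with a mean share of at least 5%, and those of at least 10% in either genotype, or with an unadjusted p under 0.05, are named; of 29 partner genes those with an unadjusted p under 0.05 are named, and 1 more gene of that list is not reported here. The mice are separate animals, and with 3 per genotype the spread between them limits the precision, since counting error is small at 40463587 to 62141336 read pairs.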

Additional observations from a re-analysis of the deposited data

How the results depend on the processing

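With 3 mice per genotype, only sizeable changes of these genes could be called. The count of all genes called, 5, was 45 without a filter, 50 with DESeq2's Wald test and 2 to 28 with each mouse left out (28 without N-cre;Fox1 replicate 1). The count of isoforms called, 0, was 10 without a filter and 215 with DESeq2. Isoform use calls over all genes, 92, fell to 45 at 10 counts in every mouse and to 1 with limma on the ratio, were 144 with limma diffSplice, 170 to 199 with each mouse left out and 271 without both mice with choroid plexus markers. Of the members, 0 genes were called in any of these settings except Unc13c without both such mice (1 of 10, log2 fold change -0.69). In isoform use, 0 to 2 member isoforms were called with a mouse left out. These were Erc2-210 (without N-cre replicate 2, N-cre replicate 3 or N-cre;Fox1 replicate 3, adjusted p 0.000513 to 0.0478), which had counts in N-cre;Fox1 replicates 1 and 2 only, and Unc13b-203 (without N-cre replicate 2 or any one N-cre;Fox1 mouse, adjusted p 4.29e-09 to 0.00711), which had counts in N-cre replicates 1 and 3 only. Both are at 0 in 4 mice and were not tested with all 6. Of the 28 member isoforms with a share of at least 5%, 3 did not overlap, against 11% of all such isoforms. The count was 3 to 12 with each mouse left out (12 without N-cre replicate 2) and 5 without both mice with choroid plexus markers. Fewer mice overlap less often. Of all genes, 12.1% had no overlap in CPM with 6 mice and 35.3% without both such mice. The share over all isoforms is not given for these settings, so the higher counts cannot be read as a result about the members. A different measure, the same sign of the difference for every replicate number, held for 10 of the 28. It treats mice of the same number as pairs, and isoforms of the same gene are not independent. The share over all isoforms is not given here either, so this count cannot be read as a result about the members.

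Whether mice of the same replicate number were paired could not be decided. The correlations of the deviations of same-numbered mice were 0.378, -0.0951 and -0.211, and those of differently numbered mice ranged from -0.374 to 0.439. Deviations from the mean of only 3 mice balance within a genotype, so such correlations cannot exclude pairing. With the replicate block 5 genes, 0 isoforms and 64 isoform use calls passed, and 0 were members.

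Log2 fold changes near 0 changed sign in some settings, and the cause was not tested. Without both mice with choroid plexus markers Unc13b was at -0.042, Erc2 at 0.018, Rims2-206 at -0.12, Erc2-204 at 0.12, Erc2-208 at 0.031, Rims1-203 at 0.056 and Pclo-204 at 0.0019. Without a filter Rims1-206 was at 0.00095, and with limma-voom Rims2-204 at -0.0021. With each mouse left out the ranges were -0.060 to 0.037 for Erc2, -0.025 to 0.050 for Unc13b, -0.041 to 0.036 for Unc13b-201, -0.046 to 0.087 for Erc1-201, -0.33 to 0.18 for Erc1-203, -0.021 to 0.21 for Erc1-206, -0.0047 to 0.096 for Unc13a-201, -0.066 to 0.15 for Unc13a-208, -0.056 to 0.062 for Rims2-204, -0.047 to 0.14 for Rims2-206, -0.22 to 0.086 for Erc2-204, -0.055 to 0.032 for Erc2-208, -0.15 to 0.042 for Rims1-203, -0.018 to 0.014 for Rims1-206, -0.011 to 0.17 for Ppfia2-204 and -0.037 to 0.0098 for Pclo-204. Rims1-204 stayed at -0.66 to -0.42 in every setting, with adjusted p from 0.168 to 1.00.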
